A study of Mus musculus with 2 samples.

Results

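B cells that carried RNA of Ahnak, Lgals1, Cd44 and Itgb1 were taken from white blood cells of the mouse retinal pigment epithelium and choroid, the pigmented layer and the vascular layer behind the retina. They numbered 184 of the 7400 cells kept in the series, 92 in each of the 2 libraries. A kept barcode had at least 1000 UMIs (unique molecular identifiers, each standing for 1 captured RNA molecule), at least 300 genes and under 10% of its UMIs from mitochondrial genes. B cells had at least 3 UMIs of Cd79a, Cd79b and Ms4a1 together, no UMI of Cd3d or Cd3e and fewer than 5 of Lyz2. Members were the B cells in which Ahnak, Lgals1, Cd44 and Itgb1 summed to at least 4 UMIs, and the remaining 1343 B cells, 501 flox and 842 knockout, are called the other B cells. Members were thus chosen by measured UMIs of these 4 genes, so their levels are a description and carry no support of their own.

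Each library came from CD45-sorted cells of eye tissue of mice treated with sodium iodate (NaIO3), an oxidant toxic to the retinal pigment epithelium, at 20 mg/kg by intraperitoneal route. In the flox library the mice carried the floxed Il17ra gene, labelled IL-17ra fl. In the knockout library they were conditional knockouts of the same gene, labelled IL-17RA CKO. Both groups received NaIO3, and no untreated group was analysed here. The cell type in which Il17ra was deleted, the Cre driver, the age and the number of animals are not stated in the labels or the headers. With 1 library per group no difference has a replicate check, no p-value is given, and all intervals are 95% intervals that cover counting error only.

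As background, memory B cells are long-lived cells that have met antigen and respond quickly when they meet it again, and many of them have exchanged the IgM and IgD receptor for IgG or IgA. B-1 cells are a separate lineage that secretes natural antibody and arises largely before or around birth. Cells of both kinds, and the age-associated B cells that carry T-bet, tend to have more RNA for adhesion molecules, annexins, S100 proteins and the cytoskeleton than naive follicular B cells, which recirculate through lymphoid organs and carry IgD and the low-affinity IgE receptor. Ahnak is a very large scaffold protein beneath the cell membrane, Lgals1 encodes galectin-1, Cd44 the hyaluronan receptor, Itgb1 the beta-1 integrin and Ccnd2 cyclin D2.

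The 4 genes of the rule and Ccnd2, which the rule did not use, were all higher in members than in the other B cells of each library. Ahnak (ENSMUSG00000069833, chr19:8989284-9076914, plus strand, GRCm38/mm10) stood at 782 CPM (732 to 835) in flox members and 355 CPM (316 to 399) in knockout members, where CPM is the UMIs of a gene per 1000000 UMIs summed over the cells. In the other B cells it stood at 35.7 CPM and 43.7 CPM. Lgals1 (ENSMUSG00000068220, chr15:78926725-78930465) stood at 394 and 141 CPM in flox and knockout members, against 11.8 and 16.2 CPM in the other B cells. Cd44 (ENSMUSG00000005087, chr2:102811141-102901665) stood at 359 and 170.4 CPM, and Itgb1 (ENSMUSG00000025809, chr8:128685654-128733200) at 401 and 179 CPM. These 4 contrasts follow from the way the cells were chosen. Ccnd2 (ENSMUSG00000000184, chr6:127125162-127152193), the cyclin that takes B cells out of rest, had UMIs in 40 flox and 21 knockout members and stood at 356 and 123 CPM, against 21.9 and 17.2 CPM in the other B cells. Its ratio was 16.3-fold (12.5 to 21.6) in the flox and 7.16-fold (5.33 to 9.61) in the knockout library. A single knockout member held 37 of the 101 UMIs, and without it the knockout ratio was 4.74-fold (3.38 to 6.6). In every one of these 5 genes the flox members were above the knockout members, which the plot of levels in members and other B cells shows beside other genes.

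**Figure D1:**
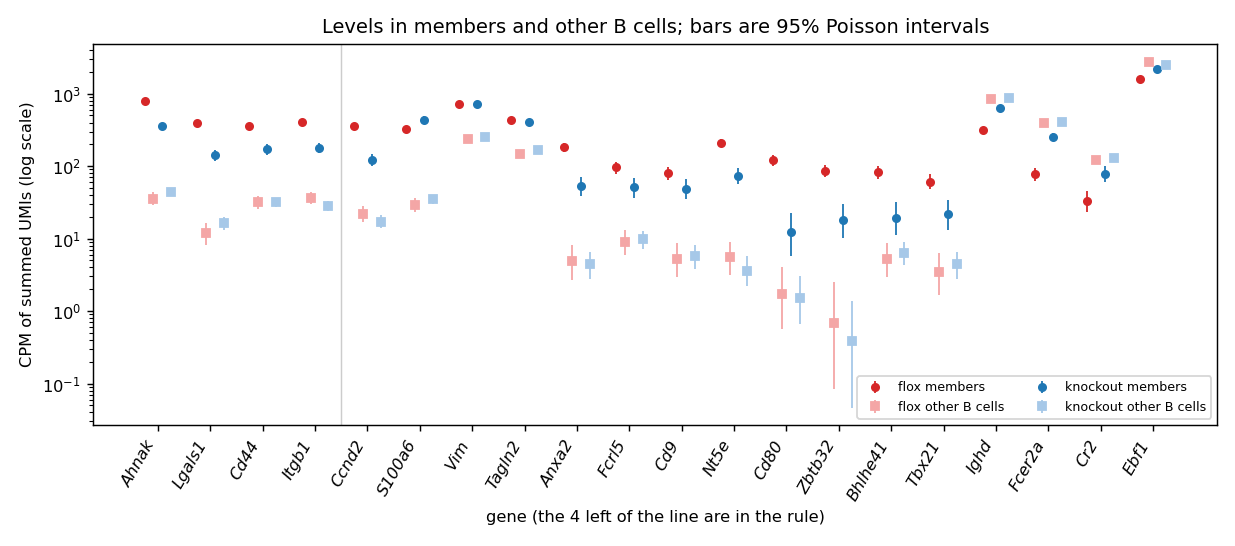
Level of 20 genes as CPM of summed UMIs on a log axis, in members (circles) and other B cells (squares) of the flox (red) and knockout (blue) libraries; bars are 95% Poisson intervals for counting error. The 4 genes left of the line belong to the rule; Ccnd2, S100a6, Vim, Nt5e and Cd80 are also higher in members of each library, while Ighd, Fcer2a and Cr2 are lower in members, more so in flox.

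Most members lay close to the threshold, and a minority far above it. Of the flox B cells, 262 had a sum of 0, 239 of 1 to 3, 45 of 4 to 6, 7 of 7 to 9, 23 of 10 to 29 and 17 of 30 or more. Of the knockout B cells, 444, 398, 65, 10, 14 and 3 fell in the same ranges. All 4 genes had a UMI in 25 flox members and 12 knockout members, and only 1 of the 4 had UMIs in 8 flox and 15 knockout members. Just inside the threshold, with a sum of 4, were 22 flox and 33 knockout cells, and just outside it, with a sum of 3, were 17 and 60. Ighd stood at 664 CPM in the flox cells with a sum of 4 and 797 CPM in those with a sum of 3, and at 815 and 714 CPM in the knockout cells. Ccnd2 stood at 124 CPM in the flox cells with a sum of 4 and had no UMI in those with a sum of 3, and its levels were 32.5 and 12.9 CPM in the knockout cells.

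The flox and knockout libraries held 38623933 and 35944330 UMIs in all barcodes. The rule counts raw UMIs, and members were deeper than the other B cells. The median was 9129.5 UMIs in flox members and 8286.5 in knockout members, against 5677 and 6185 in the other B cells. Above 20000 UMIs were 14 flox members, 1 knockout member and none of the other B cells. The highest 4-gene sum was 228 in the flox and 36 in the knockout library. The plot of the 4-gene sum against depth shows that the flox library held a set of deep cells with sums near or above 100 UMIs, without a counterpart among the knockout cells.

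**Figure D2:**
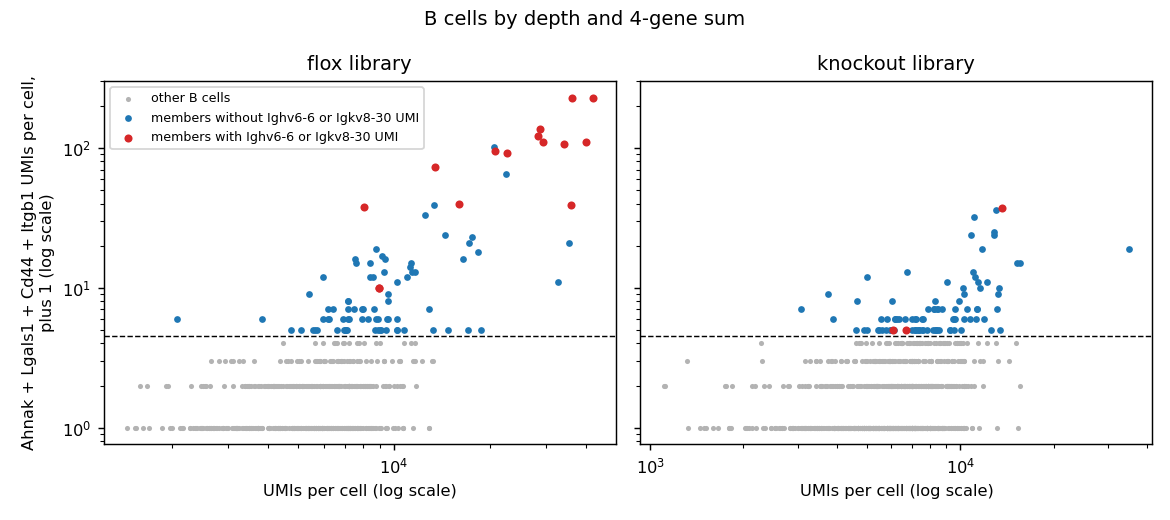
Each point is 1 B cell of the flox (left) or knockout (right) library, placed by its UMIs and by its sum of Ahnak, Lgals1, Cd44 and Itgb1 UMIs plus 1, both on log axes; the dashed line lies between sums of 3 and 4 UMIs. Grey are the other B cells, blue the members without and red the members with a UMI of Ighv6-6 or Igkv8-30, of which 15 are flox and 3 knockout cells.

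RNA of the memory markers Nt5e and Cd80 was high in some of the members only. When the B cells of both libraries were clustered without the genes of the rule, a cluster led by Parm1, Myo3b, Zbtb32, Tnfrsf8, Cd80, Dnm3, Lmo7, Nt5e, Cdk14 and Cd300lf, called cluster 3 and left without a cell type name, held 49 of the 92 flox members and 18 of the 92 knockout members. It held 1 of the other flox and 11 of the other knockout B cells. The remaining 43 flox and 74 knockout members lay in clusters with most other B cells, and they had little RNA of these markers. Nt5e, which encodes CD73, a memory B cell marker, stood at 5.86 CPM in the flox and 8.36 CPM in the knockout members outside cluster 3, against 297 and 250.4 CPM in those inside it. Cd80, a co-stimulatory ligand and memory marker, stood at 8.79 CPM in the flox members outside the cluster and had no UMI in the 74 knockout members outside it, which allows up to 5.02 CPM. It stood at 166 and 44.7 CPM inside the cluster. Members outside cluster 3 are therefore called by the rule and not by a memory name, and those inside it are given no such name either. Cluster 3 was built from the same RNA, so its leading genes are a description. They do not describe all its cells: Parm1, Myo3b and Tnfrsf8 had UMIs in 26.6%, 27.8% and 26.6% of them, and Tnfrsf8 had 0 UMIs in the 18 knockout members of the cluster.

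Markers of other cell types were present in members, and those of myeloid cells in many. The T cell list reached 3 UMIs in 2 flox and 7 knockout members, against 2 and 3 of the other B cells. The list for natural killer (NK) and innate lymphoid cells reached 3 UMIs in 4 flox and 6 knockout members, and in 1 flox and no knockout cell among the other B cells. Its summed level was 43.2 CPM in flox members and 1031 CPM in knockout members, with Gzma, a protease of killer cells, in 6 knockout members. The myeloid list reached 3 UMIs in 60 of 92 flox members, 65.2%, and 46 of 92 knockout members, 50%, against 34.5% and 34.3% of the other B cells, and 50 UMIs in 3 flox members and 1 knockout member. With cells that had 3 UMIs of the T, NK or myeloid lists left out, 30 flox and 45 knockout members remained. With no cells left out, the summed level of the myeloid list was 1710 CPM in flox and 857 CPM in knockout members, against 376 and 350 CPM in the other B cells. The plasmacytoid dendritic cell list reached 3 UMIs in 13 flox and 3 knockout members and in 13 and 15 of the other B cells, and 50 UMIs in 1 flox member. The list for eye tissue, stroma, vessels, red blood cells and platelets reached 3 UMIs in 31.5% of flox and 16.3% of knockout members, against 18% and 20.8% of the other B cells, and its summed level was 185 and 156 CPM in members against 241 and 242 CPM. Of single genes, Cd4 and Cd8a of T cells and C1qa of macrophages had 0 UMIs in the members of both libraries, and Ncr1 of NK cells had 0 in flox and 33 in knockout members. The rule left out cells with Cd3d or Cd3e UMIs or 5 of Lyz2, so low counts of T cell and macrophage genes follow in part from it. Other genes were raised over the other B cells. Of myeloid genes with at least 20 UMIs, 7 of 7 had a ratio above 1 in flox and 6 of 6 in knockout. Of T cell genes 0 of 1 did in flox and 3 of 3 in knockout. No member had a UMI of the granulocyte and mast cell list, and 0 of 92 cells allows a share of up to 3.26% in each library. Scrublet, which scores barcodes that look like a mixture of 2 cells, called 0 flox and 6 knockout members, and it marked only 0.497% of all kept flox cells. The part of these cells in the results below was not tested except where values without them are given.

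Cells of both sexes were in both libraries, a cell being called female with only Xist and male with only Y-linked UMIs. Of the flox members 71 were female, 14 male and 7 had UMIs of neither or both, and of the knockout members 47, 25 and 20. Members made up 21.1% (16.8 to 25.8) of the female and 11.1% (6.21 to 17.9) of the male B cells in flox, and 10.1% (7.54 to 13.2) and 10.1% (6.66 to 14.6) in knockout.

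Members were a larger share of the flox than of the knockout B cells. They made up 15.5% (12.7 to 18.7) of 593 flox B cells and 9.85% (8.01 to 11.9) of 934 knockout B cells by Clopper-Pearson intervals, a difference of -5.66 percentage points (-9.33 to -2.15). As a share of all kept cells they stood at 2.69% (2.18 to 3.29) of 3418 and 2.31% (1.87 to 2.83) of 3982, with B cells at 17.3% of the flox and 23.5% of the knockout cells. Among female cells alone the difference was -10.9 points, and among male cells -0.990 points. The share depended on where the threshold stood. With a sum of at least 3 it was 18.4% in flox and 16.3% in knockout, a difference of -2.11 points. With cells that had 3 UMIs of the T, NK or myeloid lists left out, it was 8.45% and 7.56%, a difference of -0.888 points. These shares are of sorted cells from 1 library per genotype, and the sort, the digestion, the genotype and the animals cannot be told apart. The labels give the 3' v2 kit for both libraries, but the flox matrix lists 1002803 barcodes, more than that kit's barcode list holds, so its kit version is uncertain and a difference in kit cannot be told apart from genotype in any value of knockout against flox.

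A set of flox members had UMIs of 1 or both of the same 2 antibody variable segments. In a B cell, 1 heavy-chain V segment and 1 light-chain V segment are joined to other segments by recombination, so cells that descend from 1 recombined cell carry the same pair. Among the 92 flox members 45 had a UMI of a heavy-chain V segment, and the commonest leading segment was Ighv6-6, in 10 cells. These 10 cells held 34 heavy-chain V UMIs, all of them of Ighv6-6. Igkv8-30 had UMIs in 14 flox members, 9 of which also had Ighv6-6, so that 15 members had 1 or both. Igkv8-28, another kappa segment, had UMIs in 4 of these 15 cells, in 6 of the 92 flox members and in 5 of the 501 other flox B cells. Among the other flox B cells 2 of 501 had either segment, and among the knockout cells 3 of 92 members and 7 of 842 other B cells, none of them with both. In the other flox B cells the commonest leading heavy-chain segment was Ighv1-26, in 11 of the 213 cells with a heavy-chain V UMI. The pair was chosen after the values had been seen. Counts from the 3' end of transcripts do not read the junction between segments, so they do not show whether these cells carry 1 rearrangement, and reads of near-identical V segments can be assigned to each other.

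The last 290 bases of both segments are shown, each marked against the nearest segment found at the same locus. They are from the GENCODE vM21 reference transcripts, not from the reads. Capitals mark the bases that differ from that segment, compared position by position from the 3' end without gaps. A segment with a longer or shorter end would appear distant in this comparison, so a closer relative may exist. The Ighv6-6 gene lies at chr12:114434788-114435244 on the minus strand of GRCm38/mm10, within the heavy-chain locus. It differs at 22 bases from Ighv6-5, the nearest by this comparison among 113 heavy-chain segments, a number that includes Ighv6-6. The Igkv8-30 gene lies at chr6:70117061-70117620 on the minus strand, within the kappa light-chain locus. It differs at 22 bases from Igkv8-19, the nearest by this comparison among 100 kappa segments, a number that includes Igkv8-30. Each is 92.4% identical to that segment over these 290 positions.
Ighv6-6: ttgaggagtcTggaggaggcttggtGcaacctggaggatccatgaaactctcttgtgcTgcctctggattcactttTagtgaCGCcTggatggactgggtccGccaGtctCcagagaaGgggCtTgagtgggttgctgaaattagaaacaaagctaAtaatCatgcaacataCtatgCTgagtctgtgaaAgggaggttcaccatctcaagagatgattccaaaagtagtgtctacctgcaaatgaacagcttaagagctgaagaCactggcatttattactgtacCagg
Igkv8-30: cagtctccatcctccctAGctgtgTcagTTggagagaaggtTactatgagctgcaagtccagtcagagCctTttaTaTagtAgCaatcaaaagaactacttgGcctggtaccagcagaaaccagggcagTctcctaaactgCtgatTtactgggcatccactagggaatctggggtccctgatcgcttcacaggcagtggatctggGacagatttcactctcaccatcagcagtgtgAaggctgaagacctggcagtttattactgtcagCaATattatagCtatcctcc

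The 15 flox members with Ighv6-6 or Igkv8-30 UMIs were unlike the other 77. All 15 lay in cluster 3 and 14 were female by Xist. Their median depth was 28255 UMIs, against 8755 in the other 77, and their median 4-gene sum was 94 against 6. They held 32.2% of all UMIs of the flox members and 63.5% of their UMIs of the 4 rule genes. Parm1, Slpi, Myo3b and Tnfrsf8, a set picked after the values were seen, summed to at least 10 UMIs in 13 of these 15 cells, in 2 of the 77 other flox members and in none of the 92 knockout members, where the highest sum was 2. Slpi, which encodes a secreted protease inhibitor, stood at 1022 CPM in the 15 cells, at 39.5 CPM in the other flox members and at 1.22 CPM in knockout members. Ddt, which encodes a cytokine related to macrophage migration inhibitory factor and was likewise picked after its values were seen, stood at 1295, 80.2 and 46.2 CPM. Ighm, the constant gene of IgM, stood at 3584 CPM in the 15 cells, with UMIs in all of them and a median of 83 UMIs a cell. Ighd, that of IgD, stood at 93.7 CPM in the 15 and 423 CPM in the other flox members. Plac8, a gene listed below for B-1 and for marginal zone cells, stood at 2.68 CPM in the 15 and at 841 CPM in the others. The V segments, the depth and the sex of these cells moved together, and their separate parts in the results were not tested.

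Against the other B cells of the same library, 57 of 7147 genes were higher in members in both libraries, with the interval of the ratio above 1.5-fold in each, which is 0.798% of the genes compared, the rule genes left out. Lower in both by the same limit were 2 genes, 0.028%. Members and other B cells differ in depth and in the genes that chose them, so these counts describe the members and do not test them. Of the 57 genes, 19 had UMIs in at least 10% of the members of each library with less than 20% of the members' UMIs in any 1 cell. The rest included genes carried by few cells, such as S100a4, in 5 knockout members, and Il1r2, in 3.

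Genes of the cytoskeleton and of calcium-binding proteins were among the genes that met these limits. S100a6, which encodes the calcium-binding protein calcyclin, stood at 324 CPM in flox members and 29.5 in the other flox B cells, and 438 and 35.1 CPM in the knockout library. Its ratio was 11-fold (8.67 to 14.1) in flox and 12.5-fold (10.4 to 15) in knockout. Vim, which encodes the intermediate filament vimentin, stood at 731 CPM in flox members and 237 in the other flox B cells, and 722 and 256 CPM in the knockout library. The ratios were 3.08-fold (2.78 to 3.41) and 2.82-fold (2.56 to 3.11), and the knockout over flox ratio between the member groups was 0.987 (0.887 to 1.1), within counting error of equality. Tagln2, which encodes the actin-binding transgelin-2, was 2.88-fold (2.53 to 3.29) and 2.41-fold (2.12 to 2.73) higher. These 3 genes also met the limit in both libraries in members outside cluster 3, where the Vim level was 431 CPM for the flox library and 657 CPM for the knockout library.

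Signalling and membrane genes were also among them. Fcrl5, an inhibitory Fc receptor-like protein of B-1 and marginal zone cells, stood at 95.8 CPM in flox members and 9.02 in the other flox B cells, and 51.1 and 9.74 CPM in the knockout library, but at 5.86 and 6.69 CPM in members outside cluster 3. Rassf4, a Ras-association protein, was 5.86-fold (4.1 to 8.5) and 4.49-fold (3.19 to 6.29) higher. Ubash3b, a phosphatase that restrains antigen receptor signalling, was 9.28-fold (5.97 to 14.9) and 3.38-fold (2.02 to 5.55) higher, and Rap1gap2, which switches off the adhesion GTPase Rap1, 4.15-fold (2.65 to 6.59) and 3.42-fold (2.12 to 5.41). Myadm, a membrane protein of myeloid and other blood cells, was 6.45-fold (5.12 to 8.18) and 2.85-fold (2.17 to 3.7) higher. Ppp1r14b, an inhibitor of protein phosphatase 1, was 3.12-fold and 2.58-fold higher. Ptms, which encodes parathymosin, was 5.63-fold and 2.96-fold higher, Pepd, a dipeptidase that releases proline, 3.49-fold and 3.32-fold, and Ccdc28b 3.98-fold and 2.97-fold.

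The 2 genes lower in members of both libraries were Car2, which encodes carbonic anhydrase 2, and Gm47782, a predicted gene. Car2 stood at 5.18 CPM in flox members and 30.5 in the other flox B cells, and 8.52 and 29.8 CPM in the knockout library. Gm47782 stood at 22.4 CPM in flox members and 163 in the other flox B cells, and 54.8 and 136 CPM in the knockout library.

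**Figure D3:**
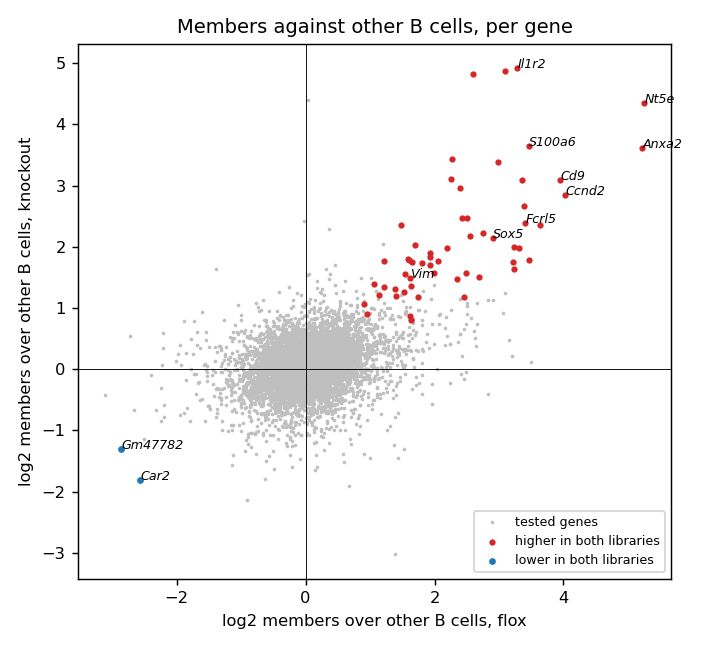
Log2 ratio of members over other B cells in the flox (x axis) and knockout (y axis) library for genes compared in both that had UMIs in all 4 groups; each point is 1 gene. Red points lie above 1.5-fold in each library with their whole intervals and blue points below it; Nt5e and Anxa2 lie farthest to the right, Car2 and Gm47782 at the lower left, and most other genes near 0.

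The count of 57 changed with the cells included. It was 5, of which 4 were among the 57, when cells with 3 UMIs of the T, NK or myeloid lists were left out. That setting left 30 flox and 45 knockout members. It was 23 when cells with 3 UMIs of the T or NK list or 50 of the myeloid list were left out, and 22 of these were among the 57. It was 8, all among the 57, for cells of 4000 to 12000 UMIs. It was 105 with members of cluster 3 only and 5 with members outside it. Of the 12 genes described above as higher, 10 met the limit without cells that had 3 UMIs of the T or NK list or 50 of the myeloid list. The number was 10 without the cells with Ighv6-6 or Igkv8-30, 6 in cells of 4000 to 12000 UMIs and 3 outside cluster 3. In the last 2 settings 9 and 7 of the 12 had enough UMIs to be compared. Within that range of depth members were still deeper, with a median of 8338 UMIs against 6307 in flox and 7846.5 against 6614 in knockout. Ubash3b, not compared there, had ratios of 5.71-fold in flox and 3.35-fold in knockout.

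Among genes that mark memory B cells, 7 of 12 measured genes were above the limit in flox members, where 5.43% of all genes were, and 2 of 11 in knockout members, where 1.39% were. The lists were chosen with earlier results of these data known, and a gene that is low in the other B cells could reach the minimum of 50 UMIs through the members alone, so the counts describe the lists and support nothing. The median log2 ratio over the list was 0.75 in flox and 0.23 in knockout, against 0.05 and 0.11 over all genes. Nt5e (ENSMUSG00000032420, chr9:88327197-88372092) stood at 211 CPM in flox members and 5.55 in the other flox B cells, and 74.2 and 3.63 CPM in the knockout library, ratios of 38.1-fold (23 to 67.7) and 20.5-fold (12.1 to 36.3). It was seen in 35 flox and 13 knockout members. Cd80 (ENSMUSG00000075122, chr16:38455561-38496335) stood at 120.0 CPM in flox members and 1.73 in the other flox B cells, and 12.2 and 1.53 CPM in the knockout library. It was in 27 flox and 5 knockout members. Zbtb32, a repressor that restrains memory B cell responses, had UMIs in 23 flox and 9 knockout members and stood at 86.3 and 18.3 CPM. Cd38, an NAD-consuming surface enzyme of B cells, was 1.93-fold (1.63 to 2.27) in flox and 0.896-fold (0.718 to 1.11) in knockout, the first above and the second within counting error of equality. Cd86, a co-stimulatory ligand, was 1.68-fold (1.52 to 1.86) and 1.48-fold (1.31 to 1.67). Pdcd1lg2, which encodes PD-L2, a further memory marker, was 0.761-fold (0.488 to 1.16) and 1.03-fold (0.591 to 1.71), within counting error of equality in each library. Without the flox member with the most UMIs of it, the flox ratio was 0.593-fold (0.359 to 0.942).

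Genes that mark B-1 cells were above the limit in 8 of 12 cases compared in flox, against 5.43% of all genes, and 3 of 7 in knockout members, against 1.39%, with 14 genes listed. Some of them, Zbtb32 and Fcrl5, are also in the memory list. Bhlhe41, a transcription factor needed by B-1a cells, stood at 82.9 CPM in flox members and 5.2 in the other flox B cells, and 19.5 and 6.3 CPM in the knockout library. Cd9, a tetraspanin of B-1 and marginal zone B cells, stood at 80.3 CPM in flox members and 5.2 in the other flox B cells, and 48.7 and 5.73 CPM in the knockout library. Spn, which encodes CD43, a surface sialomucin of B-1 cells, was measured at 139.8 CPM in flox members and 23.1 CPM in knockout members, and at 367 CPM in the 15 cells with the V segments. Ctla4, an inhibitory receptor, stood at 37.1 and 41.4 CPM, with UMIs in 11 and 10 members. In each library 1 member held 17 of its UMIs, and without it the ratios over the other B cells were 3.32-fold (1.78 to 6.26) and 2.82-fold (1.5 to 5.1). Cd5, the surface protein that defines B-1a cells, had 6 UMIs in the flox and 1 in the knockout members. Plac8, also in the B-1 list, went the other way from Spn and was far lower in the 15 cells than in the other flox members. Some markers of B-1 and of memory cells were high in the same cluster, and no B cell subset was named from them.

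Genes of age-associated B cells were above the limit in 5 of 5 genes compared in flox and 2 of 2 in knockout members, of 9 listed, against the same 5.43% and 1.39% of all genes. Tbx21, which encodes the transcription factor T-bet, stood at 61.3 CPM in flox members and 3.47 in the other flox B cells, and 21.9 and 4.39 CPM in the knockout library. In flox it was 155 CPM in the 15 cells with the V segments and 16.6 CPM in the other 77, and Itgam, the CD11b integrin chain that myeloid cells also carry, was 185 and 16.6 CPM. Zeb2, a zinc finger repressor, was 3.07-fold (2.69 to 3.52) higher in flox and 1.83-fold (1.54 to 2.16) in knockout. Fas, a death receptor, had UMIs in 24 flox and 4 knockout members.

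Of 26 genes for the cytoskeleton, annexins and S100 proteins, 26 had a ratio above 1 in flox and 25 in knockout, and 11 of 24 and 6 of 25 compared had it above the limit, against 5.43% and 1.39% of all genes. Over all genes with at least 20 UMIs, 5069 of 9317 had a ratio above 1 in flox and 6035 of 9851 in knockout. The medians of the list were 0.84 and 0.71 on the log2 scale. Anxa2, a calcium-dependent membrane-binding protein, stood at 181 CPM in flox members and 4.86 in the other flox B cells, and 53.5 and 4.39 CPM in the knockout library. Crip1, a LIM-domain protein, stood at 1936 CPM in flox members and 620.4 in the other flox B cells, and 1279 and 731 CPM in the knockout library. S100a10, the partner of Anxa2, was 1.77-fold (1.59 to 1.96) and 1.42-fold (1.27 to 1.59) higher, the latter not wholly above 1.5-fold. Lgals3, which encodes galectin-3, was 8.54-fold (5.88 to 12.7) and 2.38-fold (1.44 to 3.82) higher. A single knockout member held 8 of the 25 knockout UMIs of Lgals3. Without it the knockout ratio was 1.65-fold (0.908 to 2.84), within counting error of equality. S100a4 came to 97.4 CPM in knockout members, from 5 cells, 1 of which held 76 of the 80 UMIs.

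Most naive follicular genes were lower in members, with 9 of 11 ratios below 1 in flox and 8 of 11 in knockout. Over all genes with at least 20 UMIs, 4248 of 9317 lay below 1 in flox and 3816 of 9851 in knockout. Of the naive follicular genes in flox, 3 of 11, Ighd, Fcer2a and Btg1, lay below the limit, where 1.26% of all genes did, and in knockout 0 of 11, where 0.0984% did. The medians were -0.58 and -0.17. Ighd stood at 317 CPM in flox members and 847 in the other flox B cells, and 635 and 865 CPM in the knockout library. Its ratio was 0.374-fold (0.334 to 0.418) in flox and 0.734-fold (0.669 to 0.804) in knockout. Fcer2a, which encodes CD23, the low-affinity IgE receptor, was 0.20-fold (0.16 to 0.248) and 0.628-fold (0.542 to 0.725). Btg1, an antiproliferative gene, was 0.562-fold (0.529 to 0.597) and 0.724-fold (0.68 to 0.77). In flox members outside cluster 3 Ighd stood at 677 CPM and Fcer2a at 252 CPM, closer to the other B cells.

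Most genes of B cell identity stayed near their level in the other B cells. Of the 9 genes of that list outside the rule, 2 were below the limit in flox, Ebf1 and Ly6d, and none in knockout, against 1.26% and 0.0984% of all genes. Ebf1, a founding transcription factor of the lineage, was 0.58-fold (0.551 to 0.61) in flox and 0.86-fold (0.818 to 0.904) in knockout. Pax5, which holds B cells to their fate, was 0.776-fold (0.695 to 0.865) and 0.824-fold (0.731 to 0.927). Cr2, the complement receptor CD21 of follicular and marginal zone cells, was 0.272-fold (0.189 to 0.38) in flox and 0.609-fold (0.464 to 0.786) in knockout. Of 10 genes for antigen presentation by MHC class II, none passed the limit in either library. Jchain, a gene of antibody-secreting cells, had 1 UMI in the flox and none in the knockout members, which allows up to 3.65 CPM. Of the 10 genes listed for such cells, 1 of 4 compared, Edem1, lay above the limit in flox and 0 of 4 in knockout. Over all genes 5.43% and 1.39% did. The list reached 3 UMIs in 75% of flox and 65.2% of knockout members, which were deeper cells, against 37.7% and 44.9% of the other B cells. Its summed level was 580 and 442 CPM in members, against 440 and 446 CPM.

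Over all genes, 393 of 7241 lay above and 91 below the limit in flox, and 113 of 8130 and 8 in knockout, and the lists of transcription factors and signalling genes likewise had more genes beyond it in flox. Of 27 measured B cell transcription factors, 9 lay above and 2 below the limit in flox, and of 24 measured in knockout 3 lay above, Bhlhe40, Id2 and Zeb2. A single knockout member held 28 of the 49 Bhlhe40 UMIs, and without it the ratio was 1.55-fold (0.918 to 2.52), no longer above the limit. Id2, which holds back E proteins, was 12.4-fold (8.24 to 19.4) and 5.12-fold (3.44 to 7.58) higher, and it is also high in NK and dendritic cells. Irf8, a transcription factor of B and dendritic cells, was 2.02-fold (1.78 to 2.29) and 1.18-fold (1.0 to 1.38), and Ets1, which restrains plasma cell formation, 0.541-fold (0.495 to 0.591) and 0.902-fold (0.835 to 0.975). Of 16 genes of B cell receptor signalling, Cd72, an inhibitory co-receptor, and Fcgr2b, the inhibitory IgG receptor, lay above the limit in flox, at 2.49-fold and 2.14-fold. In knockout they stood at 0.934-fold and 1.12-fold.

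In the cell cycle list, Ccnd2 lay above the limit in both libraries and Ccnd1 and Cdkn1a in knockout. Ccnd1 came from 3 knockout members, with 52 of 54 UMIs in 1 of them, and Cdkn1a, a brake on the cycle, from 6, with 16 of 22 UMIs in 1. Without that member the ratios were 1.67-fold (0.172 to 8.34) and 0.975-fold (0.338 to 2.31), neither above the limit. Mki67, a gene of dividing cells, had 6 UMIs in each library, in 4 members each. Among 18 measured genes of adhesion and homing in flox, 4 lay above the limit and Cxcr4, the receptor for CXCL12, below it, and in knockout 1 of 16 lay above it, Itgb2, the beta-2 integrin chain, at 2.1-fold in flox and 2.63-fold in knockout. Over all genes, 5.43% lay above and 1.26% below it in flox, and 1.39% above it in knockout. Ccr2, a receptor of monocytes, was in 5 flox and 3 knockout members. In the type I interferon list 2 of 8 genes lay below the limit in flox members, against 1.26% of all genes, and 0 of 5 in knockout members, against 0.0984%. Of the lists for other cell types, 4 of 4 measured NK genes lay above it in knockout members, with Gzma from 6 cells, and 6 of 6 myeloid genes did in flox members and 4 of 5 in knockout members, beside 1.39% of all genes in knockout and 5.43% in flox. Without the member with the most UMIs of it, Ifitm3 was 0.752-fold (0.411 to 1.31) in flox and 1.59-fold (0.709 to 3.21) in knockout, and Plbd1 was 1.6-fold (1.0 to 2.48) in knockout, none of them above the limit.

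**Figure D4:**
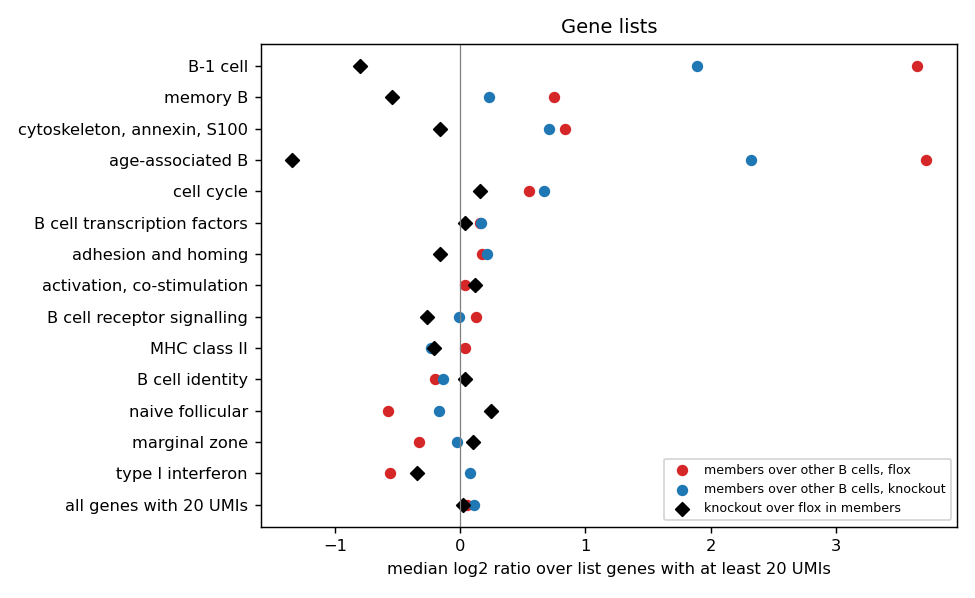
Median log2 ratio of each gene list over its genes with at least 20 UMIs: members over other B cells in flox (red circles) and knockout (blue circles), and knockout over flox among members (black diamonds). B-1, age-associated and memory genes lie to the right for members over other B cells and to the left for knockout over flox, and the row of all genes lies near 0.

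Class-switched antibody genes were found in flox members more than elsewhere. Cells with more UMIs of the switched constant genes than of Ighm and Ighd together were 6 of 92 flox members, 6.52% (2.43 to 13.7), all in cluster 3, and 2 of 501 other flox B cells. They were 0 of 92 knockout members, 0% (0 to 3.93), and 1 of 842 other knockout B cells. At least 1 UMI of a switched gene was seen in 27 flox members, 29.3%, and in 5 of 501 other flox B cells, 0.998%. In the knockout library the numbers were 6 of 92, 6.52%, and 11 of 842, 1.31%. Among kept cells that are not B cells by the rule, the shares were 0.496% in flox and 0.164% in knockout. This group includes cells with much B cell RNA, such as 3 flox cells with 83, 114 and 123 UMIs of Cd79a, Cd79b and Ms4a1. The shares are thus no floor for cells that lack switched genes. Ighg2b amounted to 61.3 CPM in flox members and 9.74 CPM in knockout members, from 8 and 2 cells. Ighg2c had 48 UMIs in 14 flox members and none in the other flox B cells, which allows up to 1.04 CPM, or in knockout members, which allows up to 3.65 CPM. Igha had UMIs in 10 flox and 2 knockout members. No member with the V segments had more switched than unswitched UMIs, although 10 of the 15 had at least 1 switched UMI. No Ighd UMI was seen in 22 of 92 flox members, 23.9% (15.6 to 33.9), and in 7 of 92 knockout members, 7.61% (3.11 to 15.1), against 6.99% and 6.18% of the other B cells. Constant genes of the IgG family are near-identical in places, so reads may be split between them, and flox members were the deeper cells.

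Between the genotypes, knockout members had 41 genes higher and 174 lower than flox members of 5405 compared, 0.759% and 3.22%, by the same 1.5-fold limit. Among the other B cells, 4 genes were higher and 6 lower of 8653, 0.0462% and 0.0693%. In the other B cells the median log2 ratio over all genes was -0.01. Among members, a gene was compared when its UMIs in flox and knockout members together reached the minimum of 50. A gene high only in the members of either library could thus enter through those members alone. Flox members held 1158696 UMIs and knockout members 821669, which eased entry for genes high in flox. The split of 41 and 174 therefore describes the members and does not test them. Some of the genes were carried by few cells. Of the 41 and 174 genes, 27 and 124 had UMIs in at least 10% of the higher members without 1 cell holding 20% of the UMIs.

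The 10 genes lowest in knockout relative to flox members by this rule were Apobec2, Cadm1, Ust, Shtn1, AC168977.1, Chst7, Cdk14, Tnfrsf8, AC133103.1 and Cd80. Apobec2, a member of the deaminase family with no settled activity, had 77 UMIs in 17 flox members and 1 UMI in knockout members, at 66.5 and 1.22 CPM. Tnfrsf8, which encodes the activation receptor CD30, stood at 73.4 CPM (58.6 to 90.7) and 6.09 CPM (1.98 to 14.2), 12.1-fold (4.97 to 38.1) higher in flox. Cdk14, a cyclin-dependent kinase, stood at 159.7 and 12.2 CPM, 13.1-fold (6.97 to 27.8) higher in flox. Cd80 was 9.86-fold (5.2 to 21) higher in flox. Cadm1, a cell adhesion molecule, had UMIs in 16 flox members and 1 knockout member, and Shtn1, a regulator of the cytoskeleton, in 19 and 2. Ust and Chst7, both sulfotransferases of glycosaminoglycans, had UMIs in 18 and 22 flox and in 2 and 5 knockout members.

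The contrast was smaller in number of genes without the cells with the V segments. Without B cells that had Ighv6-6 or Igkv8-30 UMIs, 46 genes (0.979%) were lower and 14 (0.298%) higher in knockout of 4697 compared, and 32 and 10 of these were among the 174 and 41. Of the 10 lower genes named above, Cdk14, AC133103.1 and Cd80 remained below the limit, and 7 then had fewer than 50 UMIs and were not compared. Their ratios ran from 0.0846 (0.0166 to 0.268) for Ust to 0.247 (0.0255 to 1.24) for Cadm1, and in 4 of the 7 the interval still lay below the limit. Tnfrsf8 stood at 163 CPM in the 15 cells, 30.6 CPM in the other 77 flox members and 6.09 CPM in knockout members. Cd80 stood at 206, 79 and 12.2 CPM. Of the rule genes, whose levels follow from the choice of cells, Ahnak stood at 1638, 374 and 355 CPM and Lgals1 at 872, 166 and 141 CPM. Ccnd2 stood at 731, 178 and 123 CPM, and its knockout over flox log2 ratio was -1.53 with all members and -0.59 without those cells.

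**Figure D5:**
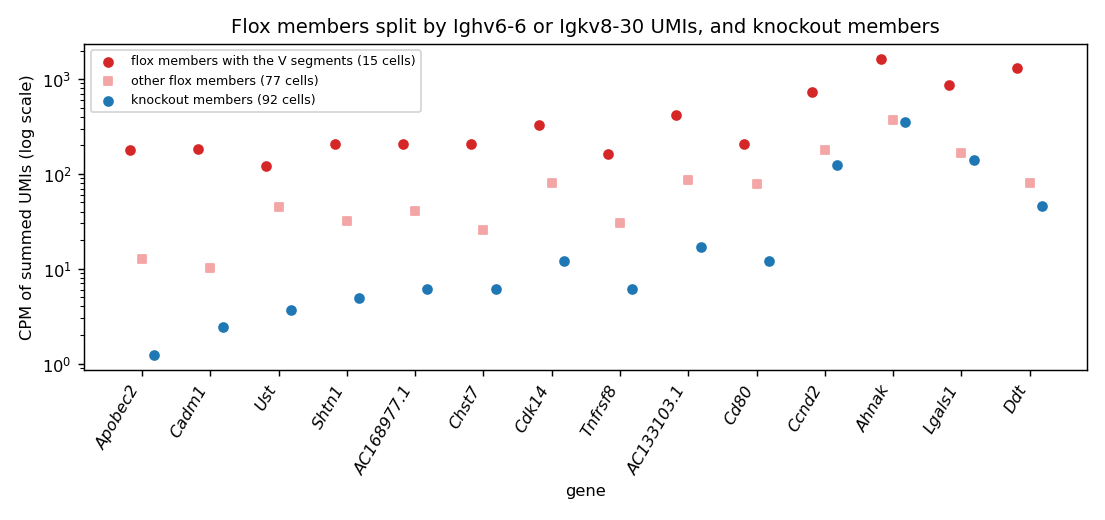
Level of 14 genes as CPM of summed UMIs on a log axis, in the 15 flox members with UMIs of Ighv6-6 or Igkv8-30 (red circles), the other 77 flox members (pink squares) and the 92 knockout members (blue circles). The red points are highest and the blue points lowest for each gene shown. Pink and blue lie close for Ahnak and Lgals1, which belong to the rule.

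Higher in knockout members were Rnf144a, Cpm, Tnik, Ddx3y, Fcer2a, Ifi206, Paip2b, Gadd45a, Bend5 and Neurl3. Cpm, which encodes carboxypeptidase M, amounted to 58.7 CPM in flox members and 207 CPM in knockout members, a ratio of 3.53 (2.65 to 4.74), and to 155 and 161 CPM in the other B cells. Fcer2a stood at 77.7 and 252 CPM, a ratio of 3.24 (2.52 to 4.2). Rnf144a, a ubiquitin ligase, had a ratio of 4.29 (2.65 to 7.21), and Neurl3, another of that class, 2.6 (1.92 to 3.53). In these 4 genes the flox members were below the other flox B cells, and the level in the other B cells differed little between the libraries. Ddx3y, a Y-linked helicase, had a ratio of 3.42 (2.02 to 5.99) beside a male share of 15.2% of flox and 27.2% of knockout members. Without the cells with the V segments, 9 of the 10 were compared, and 3 of these, Rnf144a, Cpm and Fcer2a, met the limit. Outside cluster 3 none of the 10 did, with 7 of them compared.

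By list, the knockout over flox ratio lay below the limit in 5 of 12 B-1 genes, 4 of 5 age-associated genes and 3 of 11 memory genes compared, against 3.22% of all genes. It was below 1 in 8 of 12, 8 of 8 and 10 of 13 genes with at least 20 UMIs, against 3845 of 8066 over all genes. The median log2 ratios were -0.80, -1.34 and -0.55, against 0.02 over all genes. The minimum again counted UMIs of flox and knockout members together, so a listed gene high only in flox members could enter through them alone. Counts and medians by list therefore describe the lists and do not test for a loss in knockout members. Nt5e had a ratio of 0.351 (0.261 to 0.466), Bhlhe41 0.235 (0.129 to 0.401) and Tbx21 0.358 (0.201 to 0.606). Without the cells with the V segments, 1 of 8 B-1 genes, Bhlhe41, 1 of 9 memory genes, Cd80, and 0 of 2 age-associated genes lay below the limit, against 0.979% of all genes, with medians of -0.51, -0.53 and -0.59. Of the naive follicular genes, Ighd and Fcer2a were higher in knockout members, with Ighd at 2.01 (1.75 to 2.3), and of the B-1 genes Il5ra, the interleukin-5 receptor chain, at 2.25 (1.51 to 3.39). Of the interferon-induced genes, 0 of 2 compared passed the limit. Il17ra had UMIs in 47 flox and 38 knockout members, at 98.4 CPM (81.2 to 118) and 62.1 CPM (46.2 to 81.6), a ratio of 0.631 (0.444 to 0.885). Which part of the gene was removed is not stated in the labels, so a count from the 3' end of its transcript does not check the genotype.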

How the data were processed

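CD45-sorted cells of mouse retinal pigment epithelium and choroid were measured in 2 droplet libraries of 3' RNA, 1 flox and 1 knockout. The deposited matrices hold raw counts of UMIs per gene and barcode, aligned to mm10 and counted by the authors with Cell Ranger, per the submitters' processing notes. The Cell Ranger version was 4 for flox and 7.0.1 for knockout per the file headers, and no source used here says whether intronic reads were counted. The kit is 3' v2 per the labels' protocols, but the flox matrix lists more barcodes than that kit's barcode list holds, so its kit version is uncertain. Of barcodes there are 1002803 in the flox and 4096 in the knockout matrix, so the same filter was applied to both, which kept 3418 and 3982 cells. They shared 3 barcodes, none of them among members. Of 32285 gene IDs, 32158 matched GENCODE vM21. In the other B cells the median knockout over flox log2 ratio ran from 0.05 for genes under 10 kb to -0.08 for genes over 100 kb.

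UMIs were summed over members or other B cells of a library (Python 3.11.15, scipy 1.17.1) and given as CPM with exact Poisson intervals. Ratios have conditional binomial intervals and shares Clopper-Pearson intervals, all at 95%. A gene was compared with at least 50 UMIs and counted where its interval lay beyond 1.5-fold. A count of 0 given without an interval is read as allowing up to 3 counts. B cells were clustered with scanpy 1.11.5 on 1500 variable genes without the rule genes, 20 principal components, 15 neighbours and Leiden resolution 0.8. Doublets were called with Scrublet per library and kept. The counting of genes was tested on simulated data.

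Named genes were, for members against other B cells, the 12 per direction with the largest smaller ratio of both libraries, and for knockout against flox members the 10 per direction with the largest ratio. Each had UMIs in at least 10% of the higher cells and less than 20% of them in 1 cell. The 5 markers and members of the gene lists were added, with 1 listed symbol not found. The members, the lists and the rules were chosen with earlier results of these data known. Lists are described by counts and by the median log2 ratio over genes with at least 20 UMIs.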

Additional observations from a re-analysis of the deposited data

How the results depend on the processing

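With 1 library per genotype nothing here has a replicate check, and cells of 1 library share their animals, sort and depth. No paired analysis was possible because each group has 1 library and the labels give no replicate number. No setting turned the direction of the share difference. Of 104 shares and counts of genes recomputed under other settings, 53 stayed close to those reported and 51 moved. A share stayed close if it lay inside the reported interval. A count of genes stayed close if it lay within 1.5-fold of the reported number, whichever genes it held. In female cells, 2 genes were lower in members of both libraries, and 0 of them were among the 2 reported. The cause was not tested unless a setting leaves out cells or genes, which lowers counts by itself.

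The share of B cells that were members, flox then knockout, was 9.27% and 4.18% with a 4-gene sum of at least 6, and 18.9% and 16.4% with at least 4 per 10000 UMIs. It was 32.5% and 25.6% with at least 1 in cells thinned to 2000 UMIs, and 8.45% and 7.56% without cells that had 3 UMIs of the T, NK or myeloid lists, a difference of -0.888 points. With a sum of at least 3 it was 16.3% in knockout, a difference of -2.11 points. In female cells it was 21.1% in flox and the difference -10.9 points, and in male cells 11.1% and -0.990 points.

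Genes higher in members in both libraries, reported as 57, were 2 in thinned cells, 5 without cells with 3 UMIs of the T, NK or myeloid lists, 8 in cells of 4000 to 12000 UMIs, 31 in female and 1 in male cells, 26 by the mean of each cell's CPM, and 106 with a minimum of 20 UMIs per gene. Genes lower in both, reported as 2, were 1 with a sum of at least 3, 11 with at least 6, 1 with at least 4 per 10000 UMIs, 1 in male cells and 1 by the mean of each cell's CPM. Of the 11, only 1 was among the 2 reported, and the 1 in male cells was not. They were 0 in thinned cells, 0 without cells of the other lists and 0 in cells of 4000 to 12000 UMIs.

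Between knockout and flox members, reported as 41 higher and 174 lower, the counts were 2 and 6 in thinned cells, 2 and 9 without cells of the other lists, 7 and 27 in cells of 4000 to 12000 UMIs, 5 and 34 in male cells, and 20 and 95 by the mean of each cell's CPM. In the same order, only 1 and 5, 0 and 2, 4 and 18, 0 and 6, and 12 and 84 of these genes were among the 41 and 174. With a minimum of 20 UMIs per gene 86 were higher.

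Chosen after seeing the data were 5 settings. Without cells with Ighv6-6 or Igkv8-30 UMIs, 14 genes were higher and 46 lower in knockout members. Without cells with T, NK or high myeloid UMIs, 23 were higher in members. With members of cluster 3 only, 105 were higher and 45 lower in members of both libraries and 63 were higher in knockout members. With members outside it these were 5, 0 and 10, and 15 were lower in knockout members. Of the 63, 11 were among the 41 reported, and of the 10 and 15, 6 and 5 were among the 41 and 174. For single genes, the member with the most UMIs was left out where it held at least 20% of them. The knockout ratio of members over other B cells then fell below 1 for Cdkn1a, at 0.975-fold, and the flox ratio for Ifitm3, at 0.752-fold.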

Other observations

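The V segments of the deep flox members were also seen outside the B cells of the rule. In the flox library 3 kept cells with 21367, 26346 and 30360 UMIs had Ighv6-6 or Igkv8-30 UMIs and 83, 114 and 123 UMIs of Cd79a, Cd79b and Ms4a1, but failed the rule because each had 1 UMI of Cd3d or Cd3e. Their sums of Ahnak, Lgals1, Cd44 and Itgb1 were 141, 155 and 79, and their sums of Parm1, Slpi, Myo3b and Tnfrsf8 were 49, 25 and 78. In the knockout library 1 kept cell outside the rule had 1 UMI of Igkv8-30, with a 4-gene sum of 1 and no UMI of the other set. These cells were looked at after the values of the members had been seen, and they enter none of the counts above.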
